A study of Mus musculus with 8 samples.

Results

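Genes that direct or carry out type 1, type 2 and type 17 lymphocyte responses were read in single cells of transplanted mouse lungs. The 9 genes chosen were Tbx21, Gata3, Il1rl1, Areg, Il13, Il5, Il17a, Il23r and Ccr6. Of these, 8 were measured among 17921 genes, and Il13 was not analysed here. Each of the 8 samples was the left lung graft of 1 male mouse, taken 1 month after orthotopic transplantation without immunosuppression and dissociated into a suspension of all its cells. In the control group (B6→B6, n = 5) both donor and recipient were C57BL/6. In the group that develops bronchiolitis obliterans syndrome (BOS), the scarring of small airways that marks chronic lung rejection, the donor, on the C57BL/6 background, carried the transgene Tg(HLA-A2.1)1Enge/J for human HLA-A2.1, and the recipient was C57BL/6 (HLA→B6, n = 3). All recipients were B6 mice with an intact immune system, so lymphocytes in a graft can come from the donor or the recipient, and the 2 sources were not told apart.

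Helper T cells and their innate counterparts fall into classes set by a ruling transcription factor. T-bet, encoded by Tbx21, directs type 1 cells that make IFN-γ, and it also acts in NK cells and in some B cells. GATA3 directs type 2 cells and is needed for T cell development as such. Il1rl1 encodes ST2, the receptor for the alarm cytokine IL-33, which is carried by group 2 innate lymphoid cells, by type 2 helper T cells, by many regulatory T cells of the lung, and by mast cells and basophils. Il5 encodes the cytokine that drives eosinophils, and Areg encodes amphiregulin, an EGF receptor ligand linked to tissue repair. Type 17 cells make IL-17A (Il17a), respond to IL-23 through the receptor encoded by Il23r and follow CCL20 through the chemokine receptor encoded by Ccr6. CCR6 is also a receptor of B cells.

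There were 9697 B6→B6 and 11081 HLA→B6 cells, 868 to 6544 per mouse, with 1669076 to 12445769 unique molecular identifiers (UMIs, counted molecules) per mouse. Cell types were those of the deposited table of cells, named there by clustering. The 5071 T cells numbered 147 to 1470 per mouse, and the 1011 natural killer (NK) cells 56 to 288. At least 1 UMI of Cd3d, Cd3e or Cd3g was found in 94.8% of T cells and in 4.85% of NK cells, and Ncr1 in 73.8% of NK cells. The T cell label joined cluster 1, with 4117 cells from all 8 mice, and cluster 7, with 954 cells from B6→B6 replicate 4 alone. Cluster 7 was led by Ly6d, Rag1, Hba-a1 and Dntt, genes of immature lymphocytes and of red cells, so results in T cells are also given without it. Any pair of the libraries B6→B6 1, 2 and 3 and HLA→B6 2 shared between 23 and 160 cell barcodes, of which 52.2% to 97.5% had the same cell type in both, and these 4 are called the linked libraries. Differences of mean CPM within the linked and within the other libraries stand beside the pooled ones.

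The positions on GRCm38 (mm10) are chr11:97098071-97115331 for Tbx21, chr2:9857078-9890034 for Gata3, chr1:40429570-40465415 for Il1rl1, chr5:91139599-91148432 for Areg, chr11:53720794-53725106 for Il5, chr1:20730905-20734496 for Il17a, chr6:67422932-67491855 for Il23r and chr17:8236043-8257141 for Ccr6. Tbx21, Gata3 and Il23r lie on the minus strand and the other 5 genes on the plus strand. The 250 bases before the RefSeq start of 4 genes are printed (GRCm38.p6, gene strand, 5′ to 3′). These genes were found in the same cells as Gata3 or with genes of type 17 cells, and each printed window held the letters marked in it. In Il1rl1, capitals mark the GATA letters AGATAA or TGATAA, read on both strands, and in the other 3 they mark AGGTCA, a half-site of nuclear receptors, also read on both strands.
Il1rl1, first start, chr1:40429320-40429569: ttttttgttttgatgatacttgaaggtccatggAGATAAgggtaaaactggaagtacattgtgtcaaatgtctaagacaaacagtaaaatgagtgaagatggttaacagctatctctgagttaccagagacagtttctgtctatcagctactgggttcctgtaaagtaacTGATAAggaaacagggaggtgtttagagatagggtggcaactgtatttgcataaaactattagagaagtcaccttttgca
Il17a, chr1:20730655-20730904: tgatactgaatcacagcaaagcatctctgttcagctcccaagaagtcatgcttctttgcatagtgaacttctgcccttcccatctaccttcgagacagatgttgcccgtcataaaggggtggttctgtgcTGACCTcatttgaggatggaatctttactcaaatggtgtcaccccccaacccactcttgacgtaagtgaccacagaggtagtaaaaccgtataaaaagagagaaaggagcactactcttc
Il23r, chr6:67491856-67492105: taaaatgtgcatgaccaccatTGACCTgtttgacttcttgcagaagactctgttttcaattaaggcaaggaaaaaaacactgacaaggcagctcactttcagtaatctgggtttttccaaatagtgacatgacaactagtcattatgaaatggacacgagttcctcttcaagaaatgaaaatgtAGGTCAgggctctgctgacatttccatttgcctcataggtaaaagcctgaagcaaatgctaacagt
Ccr6, first start, chr17:8235793-8236042: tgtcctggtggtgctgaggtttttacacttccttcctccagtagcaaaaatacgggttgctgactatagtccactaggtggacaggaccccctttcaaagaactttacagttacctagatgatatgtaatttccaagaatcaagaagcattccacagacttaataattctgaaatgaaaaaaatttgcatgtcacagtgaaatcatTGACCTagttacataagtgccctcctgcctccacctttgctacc
The Il1rl1 window held GATA letters 217 and 80 bases before the start, and 16.6% of 32851 promoter windows of this length held at least 1 match. AGGTCA lay 120 bases before the start of Il17a, 229 and 66 bases before that of Il23r and 44 bases before the first start of Ccr6, and 14.0% of all windows held it. A second start of Il1rl1 had both kinds of match, GATA letters at 103 bases and AGGTCA at 185 bases, and a second start of Ccr6 had no AGGTCA but GATA letters at 70 bases. The T-box half-site AGGTGT (both strands) was in 11.8% of all windows, and lay 64 bases before the first start of Il1rl1 and 81 bases before that of Il5, and matches of different motifs did not overlap. The windows of Areg and Il5, which were also found with Gata3 but are not printed, held neither GATA letters nor AGGTCA. Those of Tbx21 and Gata3 held no match. A match is a string of letters and not a measured binding site.

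Over all 20778 cells, Gata3 had 1461 UMIs and was found in 5.76% of cells, and Tbx21 had 611 (2.53%), Ccr6 348 (1.40%), Il1rl1 105 (0.404%) and Areg 73 (0.236%). The 42 UMIs of Il17a lay in 19 cells, the 23 of Il23r in 22 and the 9 of Il5 in 5. Levels were compared as CPM, the UMIs of a gene per 1000000 UMIs in the summed cells of one type in one mouse. With the 3′ counts of this assay a CPM compares transcripts without a length correction. The types were drawn from the same counts, so these levels are a description with no test.

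Tbx21 was highest in NK cells, at 206 ± 40.7 CPM (SD, n = 8 mice), above the 23.2 ± 9.06 CPM of T cells in 8 of 8 mice with no overlap of the ranges. Of its UMIs, 53.4% lay in NK cells and 35.5% in T cells. At an equal depth of 1000 UMIs per cell it was found in 18.0% of NK cells and 2.55% of T cells, and in 26.7% and 3.83% without thinning. Means in myeloid cells (5.12 CPM), B cells (3.05) and structural cells (2.12) overlapped in range, and monocytes had none of its UMIs among 1968 cells. The genes closest to Tbx21 over the 11 types were Eomes (r = 0.981), Prf1 (r = 0.978) and Klrb1c (r = 0.971), 3 NK genes.

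Gata3 was found in T cells at 116 ± 41.4 CPM and in NK cells at 91.6 ± 18.7 CPM (SD, n = 8 mice), with T cells higher in 6 of 8 mice and overlapping ranges. These 2 types were above all others. At 1000 UMIs per cell 9.80% of T cells, 8.75% of NK cells and 0.126% of B cells had a UMI. In structural cells the level was 21.8 ± 14.5 CPM, and of its subclusters Vcam1+ endothelial cells held 62.4 CPM (27 UMIs), a subcluster named T cells 54.9 CPM (22 UMIs), MHC II+ endothelial cells 40.0 CPM (109 UMIs) and Prox1+ endothelial cells, of which there were 32, 0 UMIs. Myeloid cells stood at 20.5 CPM, but 46 of the 55 myeloid cells with Gata3 also had a Cd3 UMI, and B6→B6 replicate 4 gave 34 of the 55. Cluster 7, in the same mouse, held Gata3 at 121 CPM, against 88.5 CPM in its cluster 1. Cd247 (r = 0.974), Sh2d1a (r = 0.937) and Lef1 (r = 0.937), genes of T cell signalling and identity, followed Gata3 most closely over the 11 types.

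Il1rl1 was densest in the cells labelled mast cells, which were few: 12 of 85 cells (14.1%) had it, and the level was 89.6 ± 55.5 CPM in the 3 mice with at least 10 such cells. That label held Cpa3 in 69.4% of cells and Mcpt8, a basophil protease, in 62.4%, so mast cells and basophils were not separated. T cells followed at 10.3 ± 11.8 CPM (SD, n = 8 mice) and held 61.0% of all Il1rl1 UMIs, while B cells had none. Myeloid cells stood at 6.92 CPM, and leukocytes, NK cells, monocytes, alveolar macrophages and structural cells at 1.24 CPM or less. The level of Areg was 3.20 ± 3.67 CPM in T cells, which held 37.0% of its 73 UMIs. Among the 32 cells labelled type 2 pneumocytes 7 had Areg (21.9%), at 54.2 CPM over the pooled cells and at 14.4 CPM (1 UMI) in the only mouse with at least 10 of them, and all 32 also had Lyz2. Alveolar macrophages stood at 2.29 CPM, and the 8 monocyte UMIs of Areg lay in 1 cell that also had Cd79a. The 9 Il5 UMIs were in 5 cells: 3 T cells with 1 UMI each, 1 myeloid cell with 1, and 1 cell with 5 UMIs that the table counts among structural cells in a subcluster named T cells. That last cell, from B6→B6 replicate 4, also held Gata3, Il1rl1 and Arg1 and no Cd3 UMI.

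Il17a and Il23r were nearly private to T cells, with 40 of 42 and 22 of 23 UMIs there, at means of 5.81 and 2.66 CPM. The other 2 Il17a UMIs were in myeloid cells and the other Il23r UMI in a monocyte. Ccr6 was highest in B cells, at 50.2 ± 9.26 CPM (SD, n = 8 mice) and with a UMI in 8.36% of cells, against 15.5 ± 10.5 CPM and 1.56% in T cells. B cells were above T cells in 7 of 8 mice, the exception being B6→B6 replicate 1. NK cells had 1 Ccr6 UMI among 1011 cells, and myeloid cells had 12, in 10 of 755 cells. Carry-over of Ccr6 RNA between cells was not tested.

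**Figure D1:**
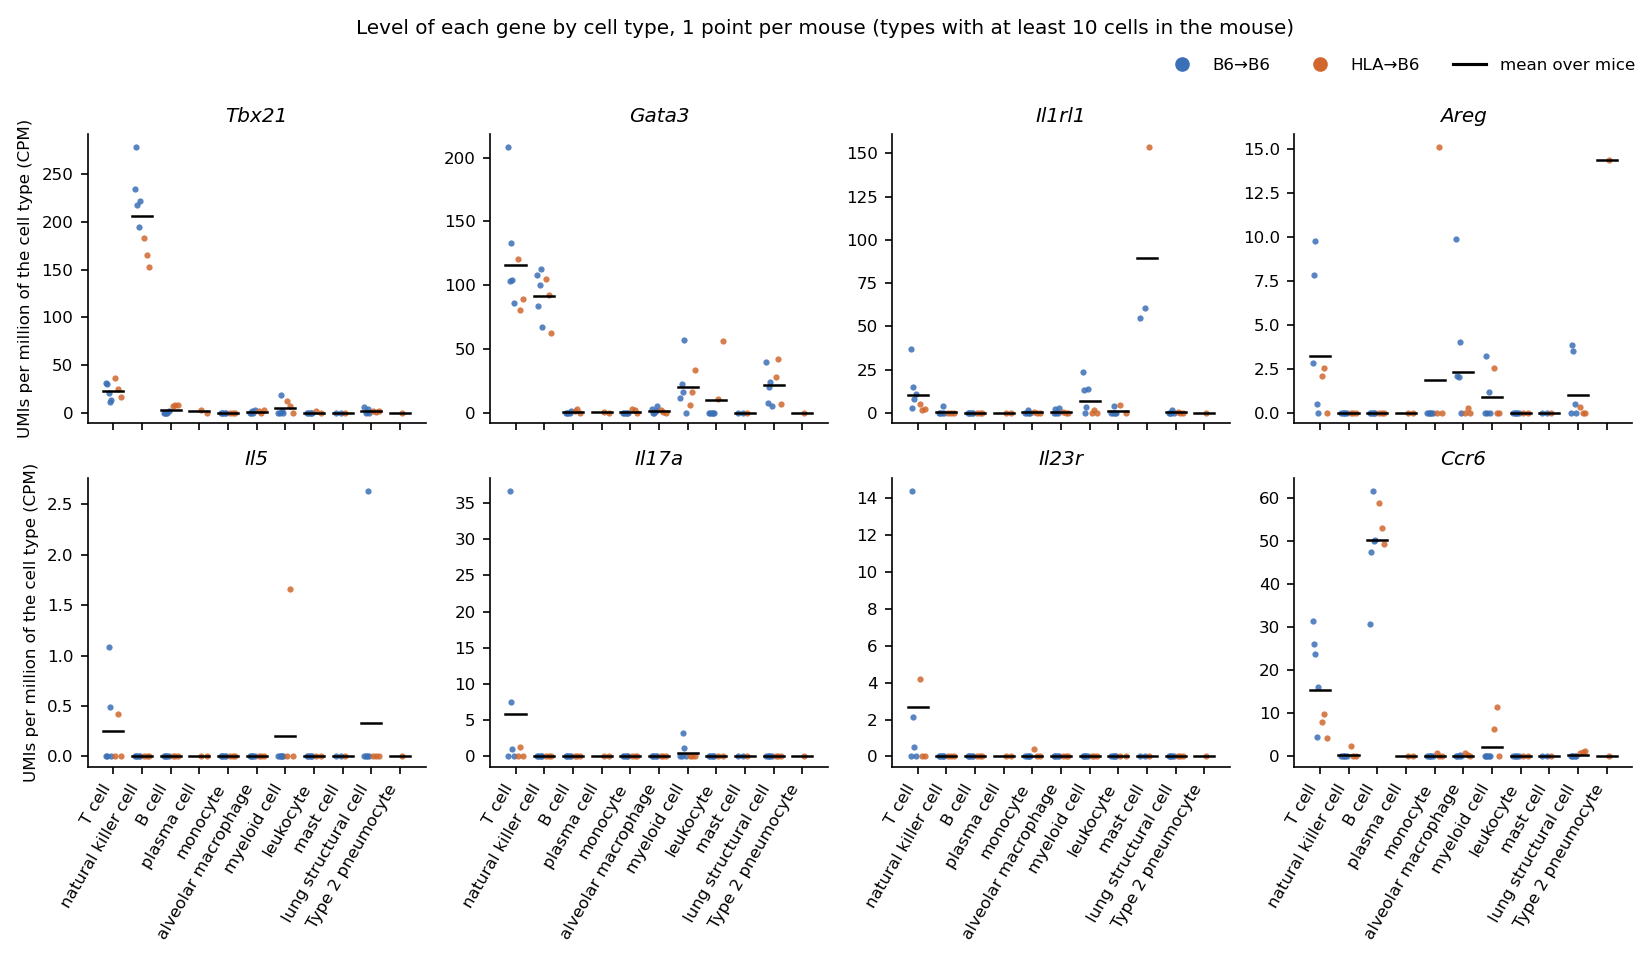
Level of each of the 8 genes by cell type, in CPM of the summed UMIs of a mouse (each point is 1 mouse with at least 10 cells of the type, blue B6→B6 and orange HLA→B6, black lines are means). Tbx21 peaks in NK cells (206 CPM), Gata3 in T cells (116 CPM), Il1rl1 in the mast cell label (89.6 CPM) and Ccr6 in B cells (50.2 CPM).

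The first comparison asked whether any of these genes differed between rejecting and control grafts within T cells. None passed the test: in sums per mouse, edgeR's quasi-likelihood test called 5 of 7164 genes (0.0698%), and none of the 3 genes with enough UMIs to enter it, Tbx21, Gata3 and Ccr6, was among them. For the 5 sparser genes, and beside edgeR, an exact permutation test, two-sided on the difference of means, was run over all 56 divisions of the mice into groups of 5 and 3, for which 0.0179 is the smallest possible p. Such tests were run on the CPM of 49 gene and cell type pairs, 4 of which were under 0.05. Fewer cells of a kind within a type and less RNA per cell cannot be told apart in such sums.

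Ccr6 showed the largest shift of the 3 genes in the T cell fit. Its level in T cells was 31.4, 26.2, 23.9, 4.45 and 16.1 CPM in B6→B6 replicates 1 to 5 and 7.92, 9.77 and 4.24 CPM in HLA→B6 replicates 1 to 3. All B6→B6 mice but replicate 4, the mouse with cluster 7, thus stood above every HLA→B6 mouse. Cluster 1 of replicate 4 alone was at 8.38 CPM, still below HLA→B6 replicate 2. The means were 20.4 ± 10.5 and 7.31 ± 2.82 CPM (log2 fold change −1.24, SE 0.55, edgeR adjusted p = 0.65, exact permutation p = 0.107). Without cluster 7 the log2 fold change was −1.39 (SE 0.39, edgeR adjusted p = 0.177, exact permutation p = 0.0536), in a fit that called 0.422% of 7106 genes. The difference was −17.4 CPM within the linked and −4.20 CPM within the other libraries. At 1000 UMIs per cell 1.70% ± 0.838 (SD, n = 5) of B6→B6 and 0.606% ± 0.318 (SD, n = 3) of HLA→B6 T cells had Ccr6 (exact permutation p = 0.107). Without cluster 7 this exact permutation p was again 0.107. Leaving out B6→B6 replicate 4, the only mouse of its group within the HLA→B6 range, gave 0.0286, the smallest p possible for the mice that remain.

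Il1rl1 in T cells stood at 37.1, 2.62, 15.2, 7.92 and 10.7 CPM in the B6→B6 mice and at 5.28, 1.70 and 2.12 CPM in the HLA→B6 mice, from 13, 2, 14, 16 and 4 UMIs and from 10, 4 and 1. Only B6→B6 replicate 2 lay within the HLA→B6 range. The means of 14.7 ± 13.3 and 3.03 ± 1.96 CPM gave a difference that did not pass (exact permutation p = 0.179), nor did it without cluster 7 (log2 fold change −2.28, SE 0.67, edgeR adjusted p = 0.193, exact permutation p = 0.0893). Within the linked libraries the difference was −16.6 CPM and within the others −5.63 CPM.

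Gata3 in T cells was at 208, 103, 133, 104 and 85.9 CPM in the B6→B6 mice and at 120, 80.7 and 89.0 CPM in the HLA→B6 mice, so the groups overlapped. The log2 fold change was −0.40 (SE 0.25, edgeR adjusted p = 0.83, exact permutation p = 0.393), and the difference changed sign between the linked (−67.6 CPM) and the other libraries (9.84 CPM). Tbx21 went the other way, from 21.4 ± 9.22 to 26.2 ± 9.79 CPM (log2 fold change 0.39, SE 0.35, edgeR adjusted p = 0.90, exact permutation p = 0.5). Its difference was −2.29 CPM in the linked and 14.3 CPM in the other libraries. The share of T cells with a UMI at 1000 UMIs per cell was 10.7% ± 2.26 against 9.50% ± 1.49 for Gata3 (exact permutation p = 0.464) and 2.23% ± 0.969 against 2.42% ± 1.26 for Tbx21 (p = 0.786).

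Most Il17a came from 1 mouse. It was at 0, 36.65, 7.59, 0.990 and 0 CPM in T cells of the B6→B6 mice and at 0, 1.28 and 0 CPM in the HLA→B6 mice, so 28 of its 40 T cell UMIs came from B6→B6 replicate 2. Il23r was at 14.4 CPM in that mouse, at 4.23 CPM in HLA→B6 replicate 1 and at 2.17 CPM or less in the others. Areg had 1, 6, 9, 1 and 0 UMIs in the B6→B6 mice and 4, 6 and 0 in the HLA→B6 mice, and Il5 had 1 UMI in each of 3 mice. In B6→B6 replicate 2 the summed γδ T cell genes (Trdc, Tcrg-C1, Tcrg-C2 and Tcrg-C4) stood at 776 CPM, against 67.1 to 250.5 CPM in the other B6→B6 and 262.5 to 345.5 CPM in the HLA→B6 mice; their part in the Il17a and Il23r levels was not tested. Exact permutation p was 0.661 for Il17a, 0.839 for Il23r, 0.357 for Areg and 0.732 for Il5 in T cells. Within the linked and within the other libraries the differences were −13.5 and −0.495 CPM for Il17a, −5.52 and 1.865 CPM for Il23r, −4.27 and 0.809 CPM for Areg, and 0.0635 and −0.247 CPM for Il5, so the last 3 changed sign. In the T cells of a mouse 3 UMIs correspond to between 1.28 and 8.56 CPM, so a difference of a few CPM was not detectable at this depth.

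In NK cells Tbx21 was lower in HLA→B6 grafts by the exact test, but the change did not pass across all genes. It was at 235, 278, 218, 194.5 and 222 CPM in NK cells of the B6→B6 mice and at 183, 166 and 153 CPM in those of the HLA→B6 mice. Every HLA→B6 mouse was below every B6→B6 mouse, as for 1.23% of 8403 genes with at least 10 UMIs. That share is under the 1 in 56 that random division of the mice would give. The means of 229.5 ± 30.9 and 167 ± 15.3 CPM gave an exact permutation p of 0.0179, the smallest possible. The log2 fold change was −0.40 (SE 0.19, edgeR adjusted p = 0.998), in a fit that called 0.0% of 2987 genes, with 97 at an unadjusted p under 0.05 and 0 called by DESeq2. Without single mice the exact permutation p ran from 0.0286 to 0.0952. The difference was −77.9 CPM in the linked and −40.5 CPM in the other libraries. At equal depth the share of NK cells with a UMI was 19.7% and 15.0% (exact permutation p = 0.0714). Gata3 in NK cells was at 94.4 ± 18.7 and 86.8 ± 21.7 CPM (exact permutation p = 0.589), with differences of −4.55 and −6.31 CPM in the linked and the other libraries. The change in Tbx21 between the groups differed between T and NK cells by 0.77 on the log2 scale, which did not pass (exact permutation p = 0.0893).

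In B cells Tbx21, which marks B cells with a memory or atypical program, had 15 UMIs, nearly all in HLA→B6 grafts. It had 0, 0, 0, 0 and 1 UMIs in the B6→B6 mice and 5, 5 and 4 in the HLA→B6 mice, or 0.305 ± 0.681 and 7.63 ± 0.703 CPM. The groups did not overlap (exact permutation p = 0.0179, the smallest possible), as for 1.95% of 9842 genes that were higher in every HLA→B6 mouse. That share is near the 1 in 56 that random division of the mice would give, so the separation alone does not set Tbx21 apart from other genes. Tbx21 was too sparse for the main fit, which called 0.117% of 6001 genes, and without the filter on low counts its edgeR adjusted p was 0.33. The difference was 7.80 CPM in the linked and 6.78 CPM in the other libraries. The 14 cells, 1 of 1263 in B6→B6 and 13 of 1023 in HLA→B6 grafts, all had Cd79a, and 2 of them a Cd3 UMI. Of the subclusters of B cells and plasma cells, cluster 1 held Tbx21 in 7 of 149 HLA→B6 cells and in 0 of 61 B6→B6 cells, a count that allows up to 4.92% of cells with a UMI and sets no limit on cells that express the gene. Cluster 3 held it in 3 of 102 and 0 of 55 cells, cluster 2 in 2 of 148 and 0 of 24, and cluster 0 in 2 of 763 and 1 of 1132. Shares of cells depend on depth, and the median was 2976 UMIs in cluster 1 and 533 in cluster 3. Pooled levels were 10.5 CPM (8 UMIs) and 34.7 CPM (3 UMIs) in these 2 clusters. Ccr6 in B cells was at 30.8, 47.6, 61.7, 49.98 and 50.3 CPM in the B6→B6 mice and at 58.9, 53.1 and 49.4 CPM in the HLA→B6 mice, and the difference did not pass (log2 fold change 0.08, SE 0.23, edgeR adjusted p = 0.9999, 6.38 CPM in the linked and 4.02 CPM in the other libraries).

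**Figure D2:**
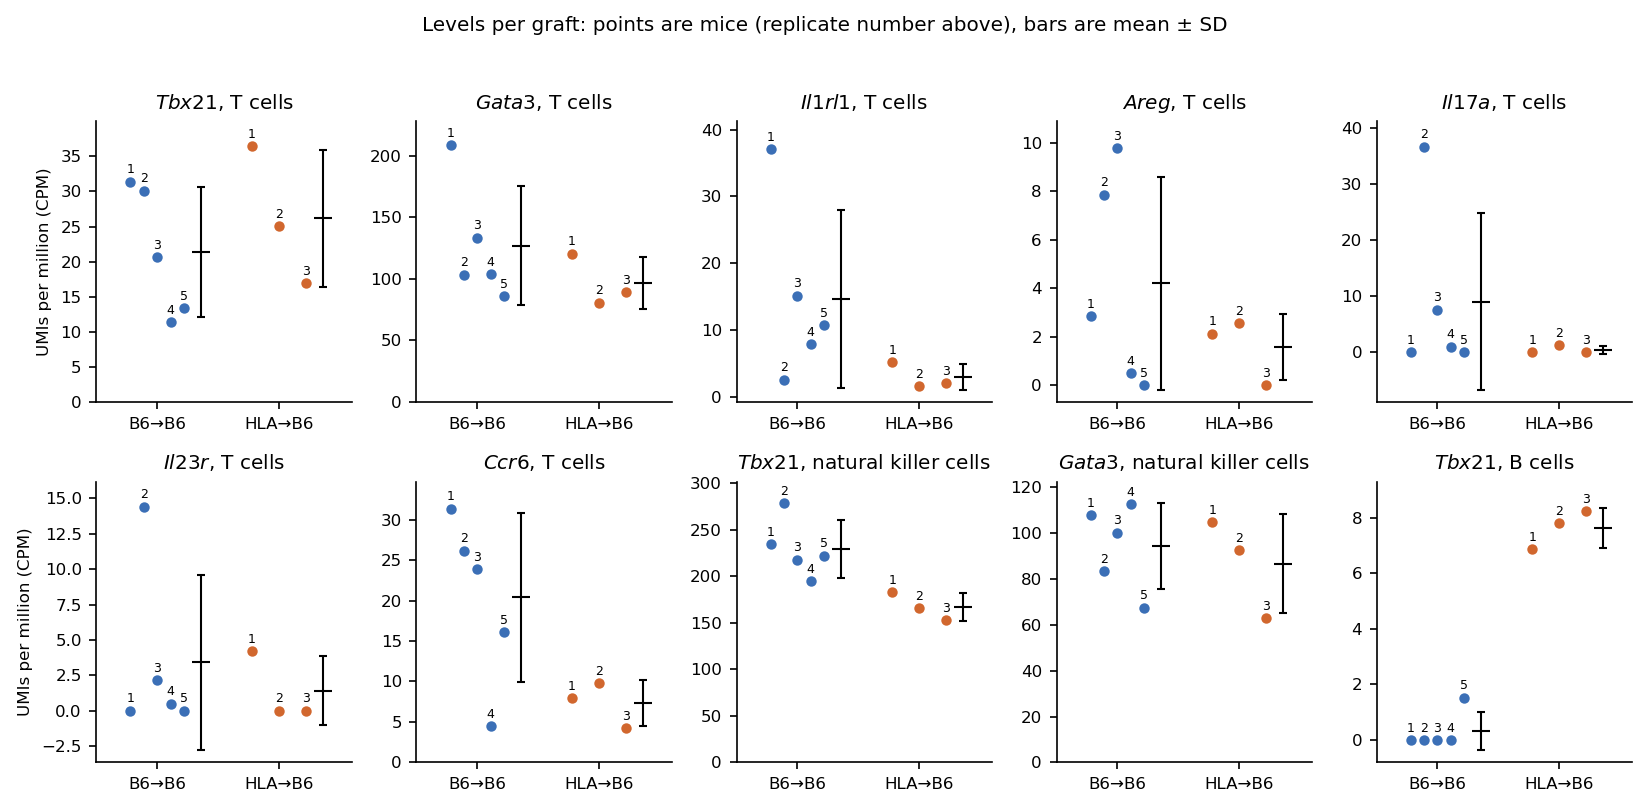
Levels by condition in T cells (7 genes), NK cells (Tbx21, Gata3) and B cells (Tbx21), in CPM of the summed UMIs of a mouse (points are mice with their replicate number, bars are mean ± SD, n = 5 and 3). The groups separate for Tbx21 in NK cells (229.5 against 167 CPM) and in B cells (0.305 against 7.63 CPM), and overlap in every T cell panel. In these directions 1.23% of genes separate in NK cells and 1.95% in B cells, beside 1 in 56 by random division.

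Over all cells of a graft Il1rl1 was at 9.59, 2.78, 3.67, 3.08 and 3.23 CPM in the B6→B6 mice and at 1.77, 0.979 and 0.377 CPM in the HLA→B6 mice. The groups did not overlap, as for 4.41% of 15610 genes that were lower in every HLA→B6 mouse, and the change did not pass (log2 fold change −1.69, SE 0.52, edgeR adjusted p = 0.40, exact permutation p = 0.0714). That fit called 0.0% of 11584 genes, with 815 at an unadjusted p under 0.05 and 119 called by DESeq2. Within the linked libraries the difference was −4.37 CPM and within the others −2.08 CPM. For Tbx21, Gata3, Areg and Ccr6 the log2 fold changes over all cells were −0.41, −0.41, −1.49 and −0.50, with edgeR adjusted p between 0.84 and 0.97. Of these only Tbx21 changed sign between the linked (−11.7 CPM) and the other libraries (0.877 CPM).

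Outside lymphocytes the genes were sparse. Gata3 in structural cells was at 19.4 ± 13.9 and 25.8 ± 17.7 CPM (log2 fold change 0.27, SE 0.36, edgeR adjusted p = 0.958, where 0.604% of 8109 genes were called), with differences of 19.65 CPM in the linked and 2.73 CPM in the other libraries. Areg in alveolar macrophages had 14 UMIs in B6→B6 and 1 in HLA→B6 grafts, or 3.61 ± 3.79 and 0.0908 ± 0.157 CPM (exact permutation p = 0.196, −4.40 CPM in the linked and −2.02 CPM in the other libraries), in a type where 12.3% of 5798 genes were called. Ccr6 had 0 UMIs in B6→B6 and 12 in HLA→B6 myeloid cells, spread over 10 cells, of which 3 had Cd79a, 2 Lyz2 and 1 a Cd3 UMI (exact permutation p = 0.107, 11.6 CPM in the linked and 3.21 CPM in the other libraries). In structural cells Ccr6 had 0 UMIs in B6→B6 and 2, 1 and 1 in the HLA→B6 mice, at 1.18 CPM or less (exact permutation p = 0.0179, 1.11 CPM in the linked and 0.945 CPM in the other libraries). In the cells labelled leukocytes Gata3 had 0 UMIs in B6→B6, and 7 (11.1 CPM) and 2 (56.6 CPM) in the 2 HLA→B6 mice with at least 10 such cells (exact permutation p = 0.0476, the smallest these 7 mice allow). A B6→B6 mouse would need 11.7 to 191.5 CPM in leukocytes and 1.58 CPM or more in structural cells to reach 3 UMIs, so differences of this size were not detectable at this depth. Both are too few UMIs for the main edgeR fit. With no filter on low counts the edgeR adjusted p was 0.535 for Ccr6 in structural cells and 0.477 for Gata3 in leukocytes. The share of all genes that separate the groups in this way was not counted in these types, so both separations are a description.

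The wider type 1, type 2 and type 17 programs, read from lists of 13, 14 and 18 genes, gave no call in T cells. In the type 1 list 0 of 10 tested genes passed, with a median log2 fold change of 0.63 beside −0.02 over all genes. Ifng, its effector cytokine, was at 22.4 ± 12.0 CPM in B6→B6 and 54.4 ± 23.2 CPM in HLA→B6 T cells (log2 fold change 1.40, SE 0.35, edgeR adjusted p = 0.225), and Cxcr3, a chemokine receptor of type 1 cells, had a log2 fold change of 0.96 (adjusted p = 0.343). Of the type 2 list 0 of 6 passed, with a median of 0.10. In the type 17 list 0 of 10 passed and the median was −1.12. Without cluster 7 the median of the type 17 list was −1.14 over 9 tested genes. Il17re, a receptor chain for IL-17C, Cd163l1 and Blk, both known in IL-17-making γδ T cells, had log2 fold changes of −1.80, −2.11 and −2.07 and did not pass. With no filter on low counts 2 of the list genes passed, among them Ifng upward. In NK cells 0 of 12 tested list genes passed.

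Co-detection in single T cells was read as the number of cells with a UMI of both genes against the number expected from their shares within each mouse. Gata3 and Il1rl1 were both found in 28 T cells where 8.57 were expected, a ratio of 3.27 (95% interval from counting alone 2.17 to 4.72), with 7, 1, 6, 7 and 1 such cells in the B6→B6 mice and 4, 2 and 0 in the HLA→B6 mice. The observed number was above the expected one in 7 of 8 mice. At 1000 UMIs per cell the ratio was 4.63. Tbx21 and Gata3, the opposed type 1 and type 2 factors, shared 42 cells where 31.5 were expected (ratio 1.34, interval 0.962 to 1.81), and Gata3 and Ccr6 shared 22 where 13.6 were expected (1.62, interval 1.02 to 2.46), but only 1.35 and 1.04 times the expected number at 1000 and 500 UMIs per cell.

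Tbx21 shared no T cell with Ccr6, Il1rl1 or Il23r, where 3.68, 2.00 and 1.14 cells were expected. Within the type 17 genes Il23r and Ccr6 shared 5 cells against 0.612 expected, 4 of them in B6→B6 replicate 2, while Il17a and Ccr6 shared 2 and Il17a and Il23r 1. Gata3 shared 4 cells with Il17a and 4 with Il23r, against 2.94 and 3.65 expected. Areg was found with Gata3 in 6 cells (3.44 expected) and with Il1rl1 in 2 (0.25 expected). Of the 3 T cells with Il5, 2 held Gata3 and 1 of these also Il1rl1. These counts describe pairs of low UMI numbers in cells that share a library.

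**Figure D3:**
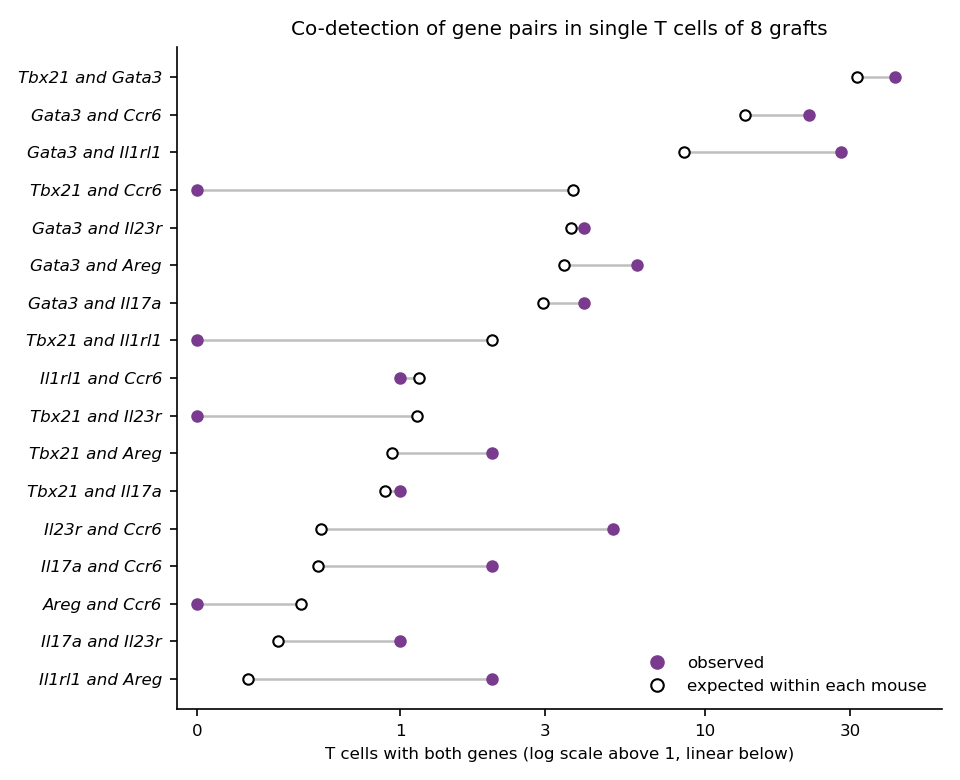
Number of T cells with a UMI of both genes of a pair (filled) and the number expected from the 2 shares within each mouse (open), for the 17 pairs without Il5 that had at least 0.2 expected cells. Gata3 and Il1rl1 have the largest difference in cells (28 against 8.57), Il23r and Ccr6 the largest ratio (5 against 0.612), and pairs of Tbx21 with Ccr6, Il1rl1 and Il23r were at 0, with counting intervals that include the expected number.

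Which other genes the cells with a member share was tested within mice, by summing T cells with and without a UMI of the gene in each mouse and fitting edgeR with the mouse as a block and the gene itself left out. The largest moves named below were picked among called genes that moved the same way in every mouse, so that sameness is no result. The T cells with Tbx21 (191 cells in 7 mice) differed in 47 of 2864 genes (1.64%), 26 higher (0.908%) and 21 lower. Receptors of the NK family led the rises. Klrb1c, which encodes NK1.1, was at 163 ± 124 CPM with and 32.2 ± 9.91 CPM without Tbx21 (log2 fold change 2.07, SE 0.27, edgeR adjusted p = 1.13e-09), and Klrc2 (2.00), Klrc1 (1.55), Klrd1 (1.24) and Klrk1 (1.09), which encode the NKG2 receptors and their partner CD94, rose with it in all 7 mice. So did Ly6c2 (1.22), Il2rb (1.10), the IL-2 and IL-15 receptor chain, and the chemokine gene Ccl5 (1.03), all linked to effector and memory T cells. The largest falls were those of Igfbp4 (−3.26), Dapl1 (−2.17), Rgcc (−1.80) and Slamf6 (−1.75). Ccr7 (−1.53), the homing receptor of naive T cells, and Cd4 (−1.05) fell too.

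Of the NK list 3 of 4 tested genes rose in these cells (Klrb1c, Klre1 and Gzma), with Gzma, granzyme A, higher in only 4 of 7 mice. Ncr1, the NK cell receptor gene, was found in 7 of the 194 T cells with Tbx21 (3.61%, against 0.718% of those without), and 186 of the 194 had a Cd3 UMI, against 94.7% of those without. The part of NK cells under this label in the rise was not tested. The type 1 list gave 0 calls of 6, with a median of 0.33 beside −0.03 over all genes: Ifng was at 0.65 (adjusted p = 0.57) and Cxcr3 at 0.58 (adjusted p = 0.12) in edgeR. Genes of γδ T cells were found in 56 of 194 cells with Tbx21 (28.9%) and in 13.8% of those without, and Foxp3 in 1. In the fit 0 of 4 tested γδ genes were called, with a median log2 fold change of 0.47. The cells with Tbx21 had a median depth of 1972 UMIs, against 1633 without, so these shares are not at equal depth.

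T cells with Gata3 (770 cells in 8 mice) differed in 111 of 3885 genes (2.86%), 53 higher (1.36%) and 58 lower. The steps were small. S100a4 was at 484 ± 244 CPM with and 262.5 ± 127 CPM without Gata3 (log2 fold change 0.84, SE 0.11, edgeR adjusted p = 1.55e-07). Rora (0.81), a nuclear receptor of innate lymphoid and type 17 cells, Lmo4 (0.68), the TNF receptor family genes Tnfrsf4 (0.79, OX40) and Tnfrsf18 (0.67, GITR), and Icos (0.63), a costimulator, rose in 8 of 8 mice, as did Klrb1c (0.70) and Glrx (0.61). Of these 8 rises, 6 passed with no filter on low counts, all but Klrb1c and Glrx. Igfbp4 (−1.15), Dapl1 (−1.10) and Fam208a (−0.87) fell in all 8 mice. Both Cd8 genes fell (Cd8b1 −0.72, Cd8a −0.47), and so did Ccr7 (−0.56). In the type 2 list 3 of 5 tested genes rose (Icos, Maf and Rora), with a median of 0.55 beside 0.00 over all genes, while Il4ra was at −0.61 (edgeR adjusted p = 0.101). Without TMM, the scaling between libraries, the split was 75 higher and 33 lower, and without cluster 7 the fit called 186 genes. Their median depth was 1861 UMIs, against 1609 without Gata3.

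Cells with Il1rl1 were few (41 cells in 4 mice), with 58 of 2530 genes called (2.29%), 34 higher (1.34%) and 24 lower. On simulated counts of this size the fit recovered fewer of the changed genes than in the other fits and made more false calls than the threshold allows. Gata3 itself was at 1090 ± 575 CPM with and 114 ± 12.6 CPM without Il1rl1 (log2 fold change 2.93, SE 0.33, edgeR adjusted p = 1.84e-07), higher in 4 of 4 mice. Lpcat2 (log2 fold change 6.82, 16 UMIs in cells with and 10 in the far more numerous cells without), Arg1 (6.56, 10 and 5 UMIs), which encodes arginase 1 and is known in group 2 innate lymphoid cells, and Klrg1 (5.15, 38 and 51 UMIs), a receptor of activated lymphocytes, had the largest fitted folds. Prnp (4.79), Slc52a3 (4.55), Fosb (3.43), Zcchc10 (3.10) and Lmna (3.05) followed. In none of the 4 mice did the cells without Il1rl1 reach the level the filter asks for (56.7 CPM) in any of these 8 genes, so they entered the fit through the cells with Il1rl1 alone, where they had to be high, and their sizes are a description. Of all 34 higher genes 11 were of this kind, and with no filter on low counts 7 of the 8 passed, all but Slc52a3. Likewise the falls named here entered through the cells without Il1rl1 alone. Ly6c2 had 0 UMIs with Il1rl1 and 1907 without, so it was at least 7.93-fold lower, and S1pr1, the receptor for leaving tissue, had 0 and 604 and was at least 2.51-fold lower, with 3 UMIs taken as the limit of a 0 over the group.

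Ccl5 (1 UMI with and 30951 without, log2 fold change −8.74) and Cd8a (1 and 2415 UMIs, −4.98) fell as well. Of the list for group 2 innate lymphoid cells 3 of 6 tested genes rose, namely Arg1, Lmo4 (2.02) and Icos (1.48, edgeR adjusted p = 0.046), and of the type 2 list 1 of 4, Icos. Arg1 had to be high in the cells with Il1rl1 to enter the fit, so its part in this count is a description. Of the 5 innate lymphoid list genes tested in the other fits, 3 rose with Gata3, 4 with Ccr6 and 1 with Tbx21. Trbc2, the T cell receptor β constant gene, fell (−1.19). The median over all genes in this fit moved from −0.16 to 0.12 without TMM scaling, where 63 genes were higher and 20 lower. Without cluster 7, which had no Il1rl1, 151 genes were called.

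Single cells with Il1rl1 were of more than 1 kind. Of the 50 such cells labelled T cells (10, 2, 10, 12 and 3 in the B6→B6 mice and 9, 3 and 1 in the HLA→B6 mice), 26 had a Cd3 UMI (52.0%), against 95.2% of T cells without Il1rl1 at a like median depth (1616 and 1648 UMIs). Foxp3, the regulatory T cell factor, was found in 8 of the 50 (16.0%, against 1.67%), all with Cd3, in 6 mice. Arg1 was found in 6 (12.0%, against 0.120%), none with Cd3 and all with Gata3, in 4 mice. No cell had both Foxp3 and Arg1, and 36 had neither. Il2ra, the IL-2 receptor α chain, was found in 14 (28.0%, against 2.07%) and Il17rb, a receptor chain for IL-25, in 5 (10.0%, against 0.319%). Of the 24 cells without Cd3, 19 had Gata3. A UMI of Cd8a or Cd8b1 was present in 4 of the 50, against 51.5% of the others, and Trdc, Tcrg-C1, Klrb1c and Gzma were at 0. Tcrg-C2 or Tcrg-C4 was present in 7, of which 3 were among the 6 with Arg1. A fit on cells with a Cd3 UMI had too few mice with 5 such cells. At 1000 UMIs per cell Gata3 was found in 51.8% and 9.40% of cells with and without Il1rl1, and Foxp3 in 13.5% and 1.21%.

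T cells with Ccr6 (74 cells in 6 mice) differed in 218 of 2524 genes (8.64%), 71 higher (2.81%) and 147 lower. Genes of type 17 cells were among the largest rises. Tmem176a was at 723 ± 413 CPM with and 69.3 ± 60.8 CPM without Ccr6 (log2 fold change 3.15, SE 0.26) and Tmem176b rose by 3.0, and Il17re was at 212.5 ± 151 and 16.6 ± 14.7 CPM (3.21, SE 0.54). Pxdc1 (3.26), Serpinb1a (2.68), Ramp3 (2.26), Tmem64 (2.05) and S100a4 (1.81) rose in all 6 mice. Pxdc1, Il17re and Ramp3 entered the fit through the cells with Ccr6 alone, as did 3 of all 71 higher genes, and all 8 rises passed with no filter. In the type 17 list 3 of 5 tested genes rose (Il17re, Tmem176a and Tmem176b), with a median of 3.0 beside −0.09 over all genes. Il17re had to be high in the cells with Ccr6 to enter, so its part in this count and median is a description. The type 2 list gave 3 of 4 (Icos 1.24, Maf 1.45 and Rora 1.34), of which Rora and Maf are also known in type 17 cells, and the type 1 list 2 of 5, with Il18r1 at 1.26. Of 3 tested γδ genes Trdc (1.27) rose, in 4 of 6 mice, and Tcrg-C1 (1.33), in 3 of 6.

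Both Cd8 genes fell in these cells (Cd8a −4.53, Cd8b1 −3.23), as did Ccr7 (−2.14). Dapl1 had 0 UMIs with Ccr6 and 1564 without and was at least 10.4-fold lower, and Ccl5 (9 and 74057 UMIs, log2 fold change −7.63), Ly6c2 (−4.83, 3 UMIs) and Igfbp4 (−4.82, 1 UMI) fell in all 6 mice. Scaling turned this split: without TMM 136 genes were higher and 73 lower, and the median over all genes went from −0.09 to 0.20. Of all 79 T cells with Ccr6, 77 had a Cd3 UMI, 20 had Il17re (25.3%, against 1.72% of T cells without), 14 Ccr4 (17.7%, against 1.12%), 16 Cd4 and 6 Foxp3 (7.60%, against 1.72%), and 5 a Cd8 UMI (6.33%, against 51.8%). Their median depth was 2060 UMIs, against 1636, and at 1000 UMIs per cell Tmem176a was found in 38.7% and 3.72%.

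**Figure D4:**
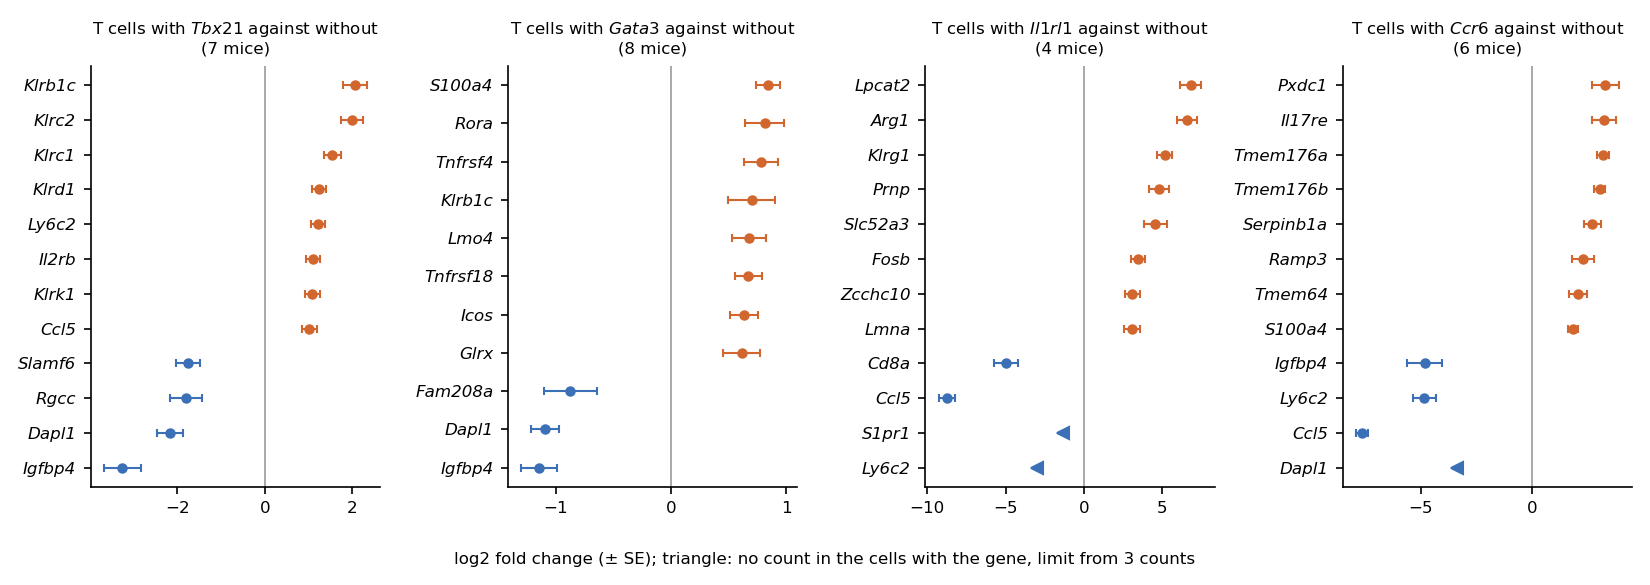
Genes that differ most between T cells with and without Tbx21, Gata3, Il1rl1 or Ccr6, as log2 fold change ± SE within mice (orange higher, blue lower, triangles mark genes with 0 UMIs, drawn at the limit that 3 UMIs allow). NK receptor genes rise with Tbx21 (Klrb1c 2.07), Rora and Icos with Gata3 (0.81 and 0.63), and Il17re and Tmem176a with Ccr6 (3.21 and 3.15). All 8 rises in the Il1rl1 panel are genes that passed the filter on low counts only through the cells with Il1rl1. In the Ccr6 panel Pxdc1, Il17re and Ramp3 passed it only through the cells with Ccr6.

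The cells with Il17a, Il23r and Areg came from too few mice for such a fit and are described. All 17 T cells with Il17a (12 in B6→B6 replicate 2, 2 in replicate 3, 1 in replicate 4 and 2 in HLA→B6 replicate 2) had a Cd3 UMI and none a Cd8 UMI. A γδ gene was present in 9 of the 17, all in B6→B6 replicate 2, and Cd163l1 in 7 (41.2%, against 1.19%). Tmem176a was found in 16 of the 17 (94.1%, against 5.66%), Maf in 13, Il17re in 11 (64.7%, against 1.88%), Blk in 6 and Il1r1, an IL-1 receptor gene, in 3, while 5 had Cd4. The 21 T cells with Il23r, 11 of them in B6→B6 replicate 2 and 7 in HLA→B6 replicate 1, were alike: all had Cd3, 18 Tmem176a (85.7%), 11 a γδ gene, 8 Blk (38.1%, against 0.990%) and 7 Cd163l1. The 20 T cells with Areg differed from both, with Ikzf2, which encodes Helios, in 11 (55.0%, against 14.4%), Maf in 8 and Foxp3 in 4 (20%, against 1.74%), and 19 of them had Cd3.

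**Figure D5:**
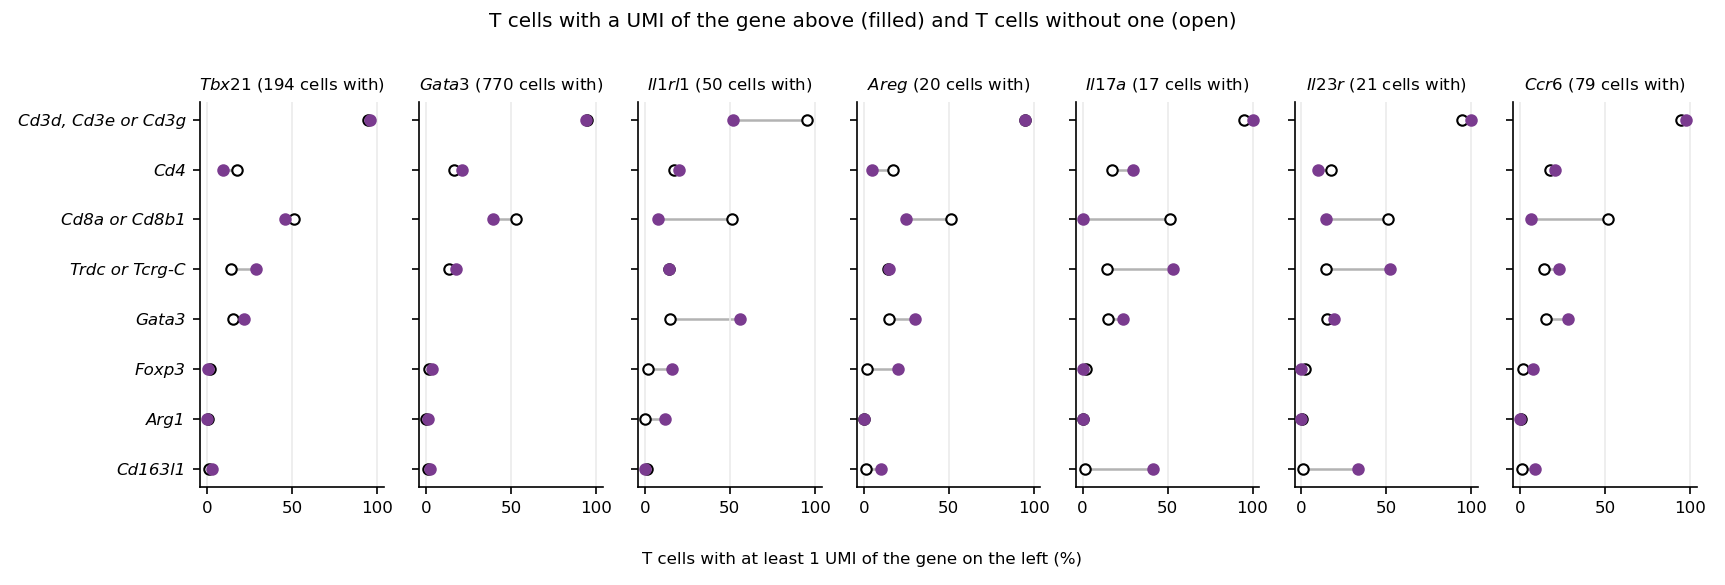
Percentage of T cells with a UMI of the gene on the left, among T cells with a member (filled) and without it (open), at the deposited depth. Cd3 is found in 52.0% of cells with Il1rl1 and in 95.2% of those without, a γδ gene in 52.9% of cells with Il17a and 52.4% of those with Il23r, and a Cd8 gene in 6.33% of those with Ccr6.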

How the data were processed

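Single-cell 3′ RNA-seq libraries (10x, 10000 cells loaded per graft) of 8 left lung grafts were analysed. The deposited values are whole-number UMI counts per gene and cell, made by the authors with Cell Ranger on mm10 (GRCm38) and filtered in Seurat. SoupX, which removes free RNA, was among the tools, but whether these counts precede it is not stated in the sources. Cell types, clusters and mouse were taken from the deposited table of cells, whose sample column was used where cell names number the HLA→B6 libraries differently.

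From the counts, sums per mouse and cell type (at least 10 cells) were expressed as CPM and tested with edgeR 4.0.16 in R 4.3.3 (quasi-likelihood F test, TMM scaling, filterByExpr with a minimum count of 10, Benjamini-Hochberg adjusted p under 0.05) or with a two-sided exact permutation test on the difference of means. T cells with and without a gene were summed per mouse (at least 5 cells with the gene, at least 3 mice) with the mouse as a block. Shares of cells were taken after thinning each cell to 1000 UMIs, which left 3906 T cells (1711 B6→B6 and 2195 HLA→B6). Likeness of pattern was Pearson's r over 11 types on log2(mean CPM + 1). The text names the 8 largest rises and 4 largest falls among called genes that moved the same way in every mouse of a fit, the chosen genes, and the lists. Some genes that this rule or the lists name are not reported here. Scripts (Python 3.11.15, scipy 1.17.1) were tested on simulated data with known changes. DESeq2 1.42.0 and other settings were alternatives, and Scrublet, the doublet caller, marked 1.23% of cells, which were kept. The genes and lists were chosen with earlier results of these data known, so no p was adjusted over a list alone. Each graft is a separate mouse. Intervals and limits cover counting error only.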

Additional observations from a re-analysis of the deposited data

Results flagged for a closer look

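In 26 sets of the 5 B6→B6 mice, the mouse furthest from the rest was compared with the spread of the others, and 7 sets held a mouse standing apart by Dixon's criterion. Its chance rate of about 1 in 20 holds for independent normal values. Some of these sets are counts mostly at 0, and the sets over all cells reuse T cell UMIs, so 7 of 26 cannot be set against that rate. The 3 HLA→B6 mice were too few for this criterion, so no such mouse could be named. B6→B6 replicate 2 stood apart for Il17a in T cells (36.65 CPM, 28 UMIs) and over all cells (9.734 CPM), and for Il23r in T cells (14.4 CPM, 11 UMIs) and over all cells (3.824 CPM). B6→B6 replicate 1 stood apart for Il1rl1 over all cells, at 9.586 CPM from 16 UMIs. The last 2 cases rest on 1 UMI each, namely Il1rl1 in NK cells of B6→B6 replicate 4 (3.89 CPM) and Tbx21 in B cells of B6→B6 replicate 5 (1.523 CPM), with all other B6→B6 mice at 0.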

How the results depend on the processing

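No chosen gene passed the edgeR threshold between the conditions under any alternative run. The number of genes called in T cells (5) was 61 with no filter, 37 with DESeq2, 39 with the replicate number as a block and 39 with the linked libraries as a block, and among settings chosen after seeing the data 30 without cluster 7, 2 in cells with a Cd3 UMI and 66 without cluster 7 and with the linked block. It ran from 0 (without B6→B6 replicate 1 or 5 or HLA→B6 replicate 1 or 2) to 24 (without B6→B6 replicate 4). In NK cells (0) it was 1 without TMM, 38 with no filter, 8 with the replicate block and 0 to 4 without single mice (4 without HLA→B6 replicate 3), and over all cells (0) it was 119 with DESeq2, 7 with the replicate block and 92 with the linked block.

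The replicate numbers do not pair the mice: deviations of same-numbered mice correlated at 0.07, 0.14 and −0.21. With the replicate block Tbx21 in T cells went to −0.12 (log2) and its share to −0.45 percentage points. Without single mice the log2 change of Gata3 ran from −0.016 (without HLA→B6 replicate 2) to 0.49 in structural cells and from −0.23 to 0.042 in NK cells, and the change in the share of T cells with Tbx21 from −0.387 to 0.866 percentage points. The number of genes whose share of T cells differed at p under 0.05 was 0 to 1 (Ccr6, without B6→B6 replicate 4). The fall of Tbx21 in NK cells ranged from −71.2 to −50.2 CPM, and 6 of 8 omissions took its exact permutation p past 0.05.

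Genes called in T cells with Tbx21 (47) numbered 229 with no filter, 27 with DESeq2, 8 with no mouse block and 37 to 57 without single mice. For Gata3 (111) they numbered 209 with no filter, 0 with no mouse block, 180 in cells of at least 1000 UMIs, 186 without cluster 7 and 57 (without B6→B6 replicate 3) to 159 (without replicate 4). For Il1rl1 (58) they numbered 274, 33 and 151 with no filter, no mouse block and no cluster 7, and 46 to 128 without single mice (128 without B6→B6 replicate 4). For Ccr6 (218) they numbered 371 with no filter and 169 to 244 without single mice. No gene named for these cells changed sign, though the largest moves were picked for going the same way in every mouse. Co-detection at 500 UMIs per cell was 6.32 times the expected number for Gata3 and Il1rl1 and 1.04 times for Gata3 and Ccr6, Il1rl1 in mast cells was at 153.6 CPM in the 1 mouse with at least 20 of them, and 2 list genes passed with no filter. Depth limits Il5, Il17a, Il23r and Areg, which had 3 to 40 UMIs in T cells.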

Other observations

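Areg in structural cells was concentrated in the small Krt8+ epithelial cluster, with 6 of its 7 UMIs and 51.6 CPM over all mice. Ccr6 was found at like levels in the larger B cell subclusters, at 54.3 CPM in cluster 0 (173 UMIs) and 45.8 CPM in cluster 1 (35 UMIs). NK cells with Gata3 numbered 142, of which 45 also had Tbx21. Foxp3 was found in 92 T cells, all with a Cd3 UMI, and Arg1 in 12, of which 6 had Il1rl1.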
